A study of Mus musculus with 12 samples.

Results

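Voltage-gated sodium and calcium channels are the proteins that carry the upstroke of the action potential and the calcium entry that follows it. The genes described here are the protein-coding mouse genes of these channels, taken by symbol as Scn followed by a digit, or as a symbol that starts with Cacna1, Cacna2d, Cacnb or Cacng. The rule gave 40 genes of the 49548 counted in each library, and all 40 were found by their Ensembl identifiers. They comprise 10 sodium channel alpha subunits, 4 sodium channel beta subunits, 10 calcium channel alpha1 subunits, 4 alpha2delta subunits, 4 calcium channel beta subunits and 8 gamma subunits. Their transcripts were counted by RNA sequencing in the lumbar spinal cord of 8 MFN2 mice and 4 WT mice, all 30 days old, with 1 library per mouse. MFN2 mice are the MitoCharc1 model of Charcot-Marie-Tooth disease type 2A, which carry Tg(Eno2-MFN2*R94Q)L51Ugfm/J on a B6;D2 background. They are hemizygous for a human MFN2 transgene with the R94Q change, which the rat Eno2 promoter drives in neurons, and they keep both copies of their own Mfn2. WT mice are labelled C57BL/6, while the study's methods describe them as littermates. If the labels hold, strain background and genotype cannot be told apart in any comparison of MFN2 with WT mice. Neither group received a treatment. The question put to the data was whether the channel transcripts differed between MFN2 and WT mice.

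In a sodium channel the alpha subunit forms the whole pore, and the smaller beta subunits, which are cell adhesion molecules, set its gating and its place in the membrane. In a high-voltage-activated calcium channel the alpha1 subunit forms the pore, an intracellular beta subunit and an extracellular alpha2delta subunit bring it to the surface, and T-type channels work with the alpha1 subunit alone. Most neuronal gamma subunits act as partners of AMPA-type glutamate receptors and not of calcium channels. In the adult spinal cord the sodium channels of the axon initial segment and the nodes of Ranvier start and carry the spike of motor neurons and interneurons.

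The libraries carry the numbers 41 to 47 and 72 to 76. The earlier run of numbers holds the 4 WT libraries (44 to 47) and 3 MFN2 libraries (41 to 43), and the later run holds 5 MFN2 libraries (72 to 76) and no WT library. For the later run, genotype and run cannot be told apart. Total counts ranged from 19359454 to 26738930 per library, and the channel genes took between 0.334% and 0.366% of them in WT libraries. They took between 0.346% and 0.417% in MFN2 libraries other than library 43, and 0.498% in library 43. MFN2 library 43 went against its tissue label. Its 8 caudal Hox genes, which mark the lower spinal cord, summed to 42.8 CPM (counts scaled to library size, with TMM factors) against 236 to 301 CPM in the other 11 libraries, and 7 of the 8 were lowest there. Its 12 forebrain genes summed to 4835 CPM against 241 to 311 CPM, and 11 of the 12 were highest there. All 7 motor neuron genes and all 6 oligodendrocyte genes were lowest in the same library. In the comparisons that include library 43, the counts of channel genes and the fold changes are therefore given with and without it.

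By transcript level per length of exon (RPKM, the same CPM per kilobase), 2 genes led the sodium channel alpha subunits in WT mice. Scn1a, which encodes NaV1.1 of inhibitory interneurons and of motor neuron axons, stood at 50.9 ± 1.88 RPKM (SD, n = 4). Scn8a, which encodes NaV1.6 of mature nodes and initial segments, stood at 41.6 ± 2.48 RPKM, and the WT libraries of these genes did not overlap. Their order depends on the division by exon length. In CPM, Scn8a (604 to 697) lay above Scn1a (539 to 590) in WT libraries, also without overlap. Scn2a, which encodes NaV1.2 of immature and unmyelinated axons, followed at 8.83 ± 1.71 RPKM and Scn3a, which encodes the mostly embryonic NaV1.3, at 2.08 ± 0.488 RPKM, again without overlap. Scn7a, the sodium-sensing channel of glia, and Scn9a, the NaV1.7 of peripheral neurons, were at 0.573 and 0.536 RPKM with overlapping libraries.

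Among the beta subunits, Scn4b, whose tail takes part in resurgent sodium current, stood at 62.8 ± 8.50 RPKM, Scn2b at 27.3 ± 4.87 RPKM and Scn3b at 2.85 ± 0.669 RPKM, and the WT libraries of these 3 did not overlap. Among the calcium channel pores Cacna1a, the P/Q-type CaV2.1 of motor nerve terminals, led at 15.4 ± 1.14 RPKM, before the N-type Cacna1b at 9.50 ± 1.08 RPKM. The T-type Cacna1i and Cacna1g, at 7.22 and 7.01 RPKM, could not be ordered, since each was the higher in some WT libraries. The range of the R-type Cacna1e, at 5.88 RPKM, overlapped theirs, but within each WT library Cacna1e had the lowest RPKM of these genes. Cacna2d2 and Cacna2d3 overlapped at 11.3 and 10.3 RPKM, and Cacna2d1, which encodes a receptor of gabapentin, was at 4.97 RPKM. Cacnb4 led the beta subunits at 22.1 ± 0.723 RPKM, followed without overlap by Cacnb1 at 8.86, Cacnb3 at 5.69 and Cacnb2 at 3.33 RPKM. Cacng7 and Cacng2 (stargazin) led the gamma subunits at 30.2 ± 1.15 and 21.3 ± 0.844 RPKM. Orders by RPKM depend on exon length here too. In CPM, Cacna1e (121 to 165) lay above Cacna1b (85.5 to 109) in WT libraries. Cacng2 (113 to 122) likewise lay above Cacng7 (69.7 to 76.1), and Cacnb2 (41.6 to 45.1) above Cacnb3 (15.4 to 26.9).

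**Figure D1:**
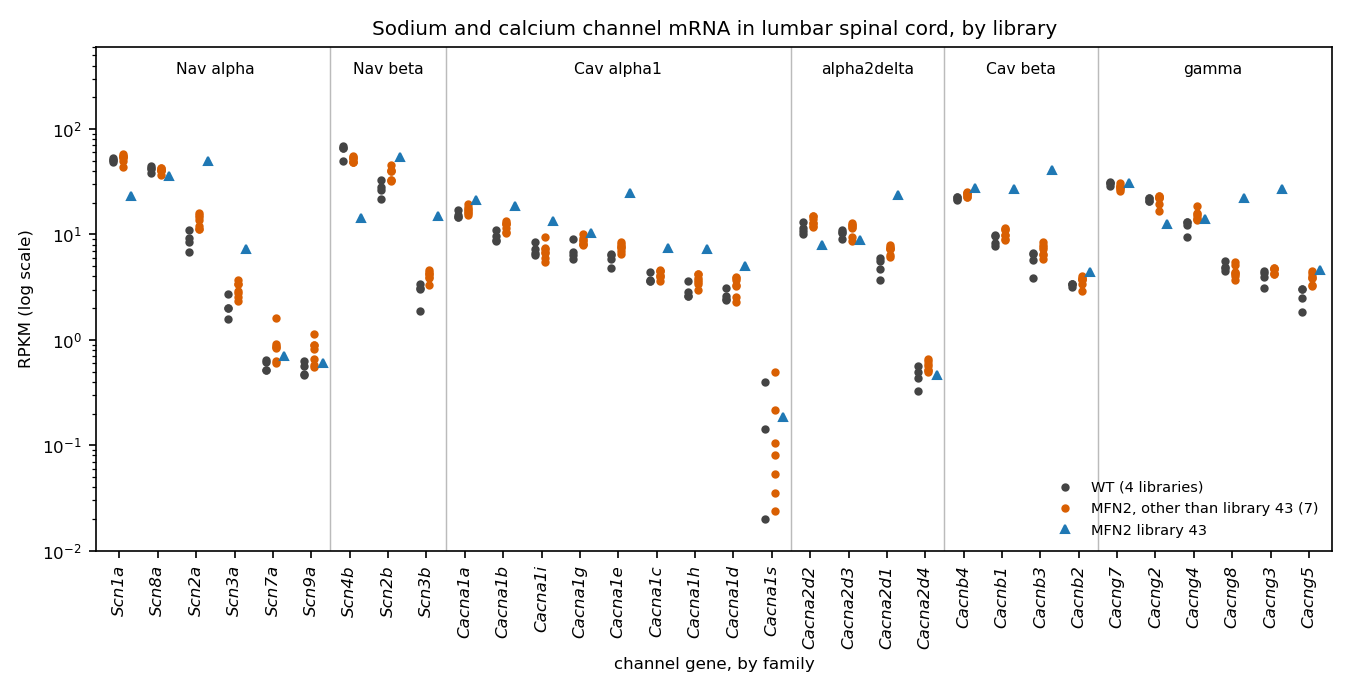
Level of 32 of the 34 channel genes that passed the filter, in RPKM on a log axis, by family and in WT order; each point is 1 library, and a WT library at 0 for Cacna1s is not drawn. Library 43 (triangles) lies above the other libraries for Scn2a, Cacna1e, Cacnb3, Cacng3 and Cacng8 and below them for Scn1a and Scn4b.

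Of the 40 genes, 34 passed the filter of more than 1 CPM in at least 3 of the 12 libraries. The 6 others were Scn4a, Scn10a, Scn11a, Cacna1f, Cacng1 and Cacng6, which are known from skeletal muscle, sensory neurons and the retina. Scn10a had 39 counts over all 12 libraries, with 3 libraries at 0, and Scn11a had 56. A count of 0 allows up to 3 counts, or 0.112 to 0.155 CPM in these libraries, for counting error only. Of the 9 sensory neuron markers counted, 6 stayed under 1 CPM in every WT library, Avil, Trpv1 and Prdm12 among them. Scn4a, the skeletal muscle NaV1.4, peaked at 1.66 CPM in MFN2 library 73 and Cacna1s, the skeletal muscle CaV1.1, at 3.26 CPM in the same library, with 2.61 CPM in WT library 47. The 11 skeletal muscle markers, led by Ttn, summed to 1021 CPM in library 73, 745 CPM in library 47 and 313 CPM in WT library 46, against 65.7 to 167 CPM in the other 9 libraries. None of these 11 was under 1 CPM in every WT library, and their part in the counts of Scn4a and Cacna1s was not tested.

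Neighbouring genes of these families are copies of each other, so their coding sequence is close, and counts of 1 gene can include reads of another. Scn3a, Scn2a, Scn1a, Scn9a and Scn7a lie in a cluster on chromosome 2 within 1.33 Mb (GRCm38, chr2:65457118-66784914). Of all distinct stretches of 75 bases, the read length, 1.88% in Scn1a, 2.80% in Scn2a, 3.85% in Scn3a and 2.78% in Scn9a also occurred in another gene, mostly in each other. In 22 of the 40 genes no such stretch occurred and in 30 it was under 1%. The highest share was 14.3%, in Cacna1s and in Cacnb4, both of which overlap a gene on the opposite strand (Gm37759 and A430018G15Rik). Cacna1a, Cacna1d, Cacnb2 and Cacng2 also have antisense neighbours that share between 3.81% and 7.32% of their exonic bases. The strand setting of the counting was not given in the sources used here, so counts of these 6 genes are uncertain to that extent. Cacna1h, Cacnb1, Scn9a and Cacna2d2 share 1.03% to 1.77% of their exonic bases in the same way. Cacng8 shares 3.88% of its exonic bases with Gm23450 on the same strand, so its counts are uncertain to that extent under any strand setting.

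A stretch of the pore loop of domain I shows where alpha subunits differ. It lies in exon 9 of annotated transcripts (GENCODE M21, GRCm38), and the capitals mark the codon of the residue that is known to set sensitivity to tetrodotoxin, the pufferfish toxin that blocks most neuronal sodium channels.
Scn8a (chr15:100971617-100971661, plus strand): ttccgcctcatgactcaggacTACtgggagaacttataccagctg
Scn2a (chr2:65688415-65688459, plus strand): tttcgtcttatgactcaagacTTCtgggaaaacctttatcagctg
Scn3a (chr2:65521792-65521836, minus strand): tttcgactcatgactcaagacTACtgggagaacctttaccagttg
Scn10a (chr9:119666366-119666410, minus strand): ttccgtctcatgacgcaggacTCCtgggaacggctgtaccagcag
The codon read TAC in Scn8a and Scn3a, TTC in Scn2a and TCC in Scn10a, which encodes a toxin-resistant channel of sensory neurons. Of the 45 bases, Scn2a and Scn3a differed in 6, Scn3a and Scn8a in 6 and Scn10a and Scn8a in 10.

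Between all 8 MFN2 and all 4 WT libraries, 0 of the 34 tested channel genes reached an FDR of 0.05 in edgeR's quasi-likelihood test, where 0% of all 15942 genes tested did so. At an unadjusted p under 0.05 there were 16 channel genes, 15 higher and 1 lower in MFN2 mice, against 15% of all genes, 7.4% higher and 7.57% lower. Without library 43 these were 21, with 19 higher and 2 lower, against 21.1% of all genes, and 0 reached the FDR threshold, where 0.119% of all genes did. DESeq2 called 2 channel genes with library 43, against 1.26% of genes with an adjusted p. Without library 43 it called 11 of the 33 with an adjusted p, 9 higher and 2 lower. There, 5.38% of the 14079 genes with one were called. The log2 fold change was above 0 for 28 of the 34 genes with and without library 43, against 50.8% of all genes with it and 49.4% without it. Its median over the channel genes was 0.38 with and 0.27 without library 43, beside a median of 0.0037 over all genes with it. In 5 channel genes the levels of the 2 genotypes did not overlap, all higher in MFN2 mice: Scn2a, Cacna1e, Cacna2d1, Cacng4 and Cacng5. Among all genes 2.04% did not overlap, 0.979% higher and 1.07% lower. Without library 43 the same 5 genes did not overlap, against 2.85% of all genes, 1.37% higher and 1.48% lower. In whole tissue, fewer cells of a type and less RNA per cell cannot be told apart.

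Against WT, the 3 MFN2 libraries of the same run of numbers (41 to 43) gave 0 called channel genes, beside 0.00627% of all genes, and a median log2 fold change of 0.43. The unadjusted p was under 0.05 for 17 of the 34, with 16 higher and 1 lower, against 7.2% of all genes, 5.35% higher and 1.85% lower. The log2 fold change was above 0 for 26 of the 34, against 49.7% of all genes, and for 24 without library 43, against 49.4%. In 10 channel genes these libraries did not overlap with WT, 9 higher and Cacng2 lower, against 8.81% of all genes, 4.53% higher and 4.28% lower. Without library 43 they were 11, 10 higher and Cacng2 lower, against 14.7% of all genes, 7.2% higher and 7.51% lower. Without library 43 the unadjusted p was under 0.05 for 11, 10 of them higher, against 5.67% of all genes, 3.36% higher, and the median was 0.20. The 5 MFN2 libraries 72 to 76 gave 19 called channel genes against WT, 17 that rose and 2 that fell, where 23.5% of all genes were called, 11.4% higher and 12.2% lower. At an unadjusted p under 0.05 there were 25 channel genes, against 37.5% of all genes. In 13 channel genes these libraries did not overlap with WT, 11 higher and 2 lower, against 19.7% of all genes, 9.43% higher and 10.2% lower. These comparisons share the 4 WT libraries, so their values stand side by side and do not count as repeats. Of the 19, 6 (31.6%), with Scn2a, Cacna1b, Cacna1d, Cacna2d3 and Cacnb2 among them, passed the threshold whichever of the 9 libraries was left out, as did 2026 (54%) of the 3753 genes called in all, or 12.7% of all genes tested. The number of called channel genes was 7 without MFN2 library 74, where 16.4% of all genes were called, and 8 without WT library 45 (14.8%). It was 9 without MFN2 library 72 (19.3%) or WT library 46 (15.6%), 11 without MFN2 library 75 (17%) and 12 without WT library 47 (20.2%). Without each of the others it was 18 to 23, against 19.5% to 28.3% of all genes.

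**Figure D2:**
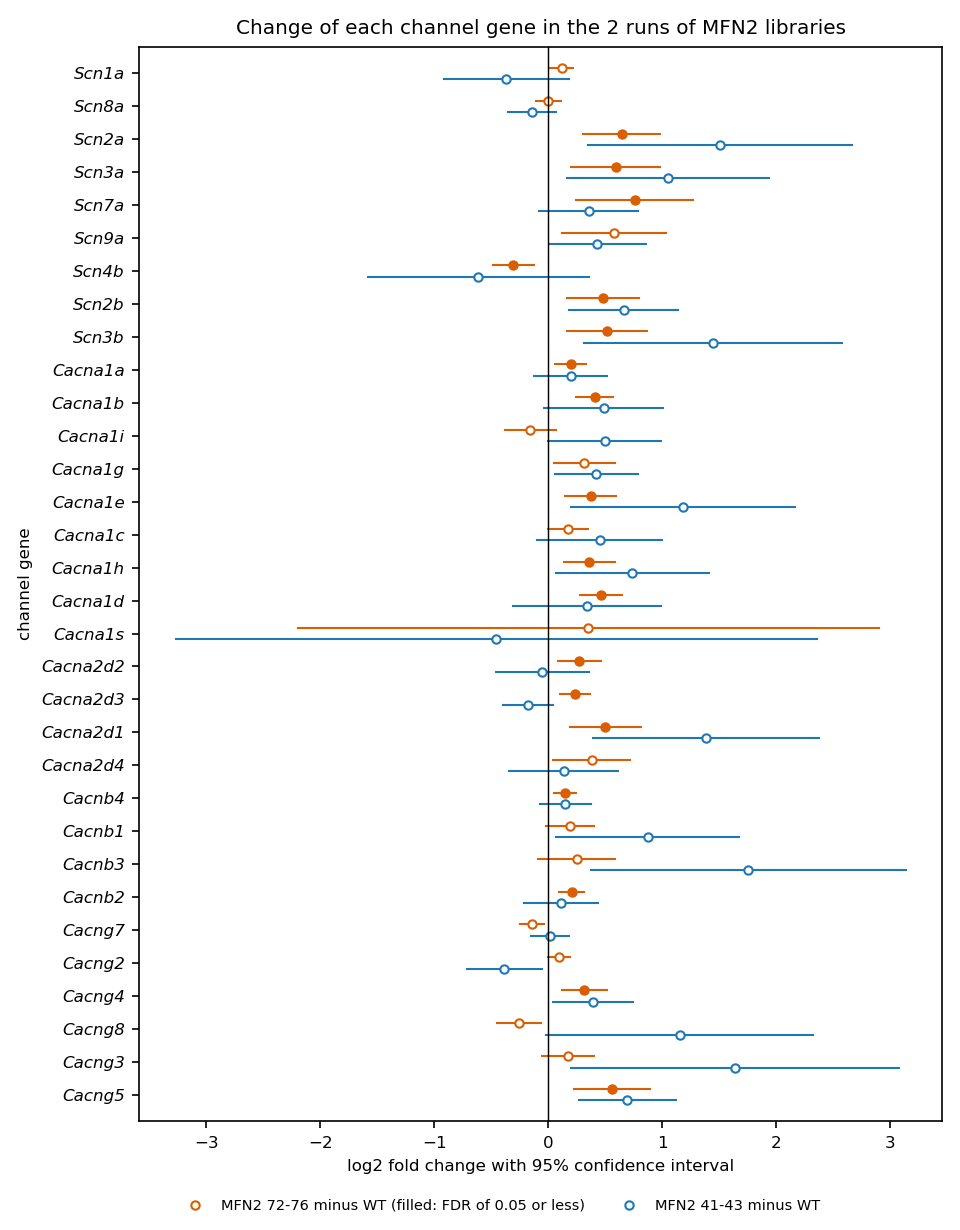
Log2 fold change against the 4 WT libraries with its 95% confidence interval for 32 of the 34 tested channel genes, for MFN2 libraries 72 to 76 (orange, filled where the FDR is 0.05 or less) and 41 to 43 (blue). Most points lie right of 0, Scn4b lies left of it in both, and the blue intervals, which rest on 3 libraries with library 43 among them, are the wider ones for most genes.

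Scn2a was the most abundant sodium channel alpha subunit to rise. Its level was 139, 107, 117 and 86.6 CPM in WT libraries 44 to 47. It was 145, 176 and 627 CPM in MFN2 libraries 41 to 43 and 203, 152, 194, 186 and 142 CPM in libraries 72 to 76. All MFN2 libraries lay above all WT libraries, with library 43 far above the rest. In libraries 72 to 76 Scn2a rose by a log2 fold change of 0.65 ± 0.15 (SE, FDR = 0.0147 by edgeR), or 1.57-fold. In libraries 41 to 43 the change was 1.51 ± 0.50 (FDR = 0.635), and 0.52 ± 0.17 (FDR = 0.863) without library 43. Over all 12 libraries it was 1.02 ± 0.39 (FDR = 0.289), and 0.61 ± 0.13 (FDR = 0.0756) without library 43.

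Scn3a rose beside it in libraries 72 to 76, from 34.3, 25.1, 24.7 and 19.7 CPM in WT libraries 44 to 47 to 42.2, 34.6, 46.2, 42.6 and 29.4 CPM. WT library 44 lay above MFN2 library 76 and just under library 73, and the other WT libraries lay below all 5. The log2 fold change was 0.59 ± 0.17 (FDR = 0.0359), and the call was lost without any one of the libraries 72, 74, 75, 45, 46 and 47, with a highest FDR of 0.0926. In libraries 41 to 43 Scn3a stood at 36.3, 32.1 and 91.3 CPM. Scn7a had the largest rise of all channel genes in libraries 72 to 76, at 0.76 ± 0.24 (FDR = 0.0376), on a low level of 3.77 to 4.72 CPM in WT libraries. Its values there were 6.15, 11.9, 6.24, 6.70 and 4.64 CPM, with library 73 far above the rest. Without library 73 the change was 0.50 ± 0.15 (FDR = 0.0370), while without 72, 74, 75, 45, 46 or 47 Scn7a was not called, with FDRs up to 0.107. Library 73 and library 43 were also highest in the 6 Schwann cell markers, at 323 and 296 CPM in sum against 43.4 to 84.3 CPM in the other 10 libraries. Pmp22 led this list in WT mice, and 2 of its genes, Egr2 and Pmp2, were under 1 CPM in every WT library. Scn7a in library 43 was 5.12 CPM, and the part of Schwann cell RNA in these values was not tested.

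The 2 leading alpha subunits did not reach the threshold. Scn8a was at 604, 653, 697 and 670 CPM in WT libraries and between 563 and 675 CPM in MFN2 libraries, with a median of 643 CPM. The groups overlapped, and in libraries 72 to 76 the log2 fold change was 0.0030 ± 0.050 (95% confidence interval -0.11 to 0.11). Scn1a was at 570, 539, 590 and 569 CPM in WT libraries 44 to 47. It was 490, 557 and 259 CPM in MFN2 libraries 41 to 43, the lowest value being that of library 43, and 619, 606, 642, 615 and 592 CPM in libraries 72 to 76, all above WT. The log2 fold change was 0.12 ± 0.046 (FDR = 0.0766) in libraries 72 to 76 and -0.37 ± 0.24 (FDR = 0.648) in libraries 41 to 43, or -0.10 ± 0.082 (FDR = 0.935) without library 43. Scn9a, at 5.95 to 8.05 CPM in WT libraries, had a log2 fold change of 0.58 in libraries 72 to 76 and was not called.

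The makeup of the alpha subunit mRNA was described as shares. Scn2a took 8.41% ± 1.56 (SD, n = 4) of the summed alpha subunit RPKM in WT mice and 12% ± 1.16 (SD, n = 7) in MFN2 mice other than library 43, where it took 42%. The shares ranged from 6.59% to 10.4% in WT libraries and from 10.2% to 13.3% in the 7 MFN2 libraries, and they overlapped at that edge. Scn8a took 39.7% ± 2.12 in WT mice and 36.3% ± 1.18 in the 7 MFN2 mice, and Scn1a 48.5% ± 0.802 and 47.1% ± 1.23. The shares of both genes overlapped between the groups, at 36.6% to 41.2% and 34.3% to 37.7% for Scn8a. For Scn1a they were 47.6% to 49.5% and 45.7% to 48.6%. In library 43 Scn1a took 19.8%. The ratio of Scn2a to Scn8a was 0.214 ± 0.0517 in WT mice and 0.330 ± 0.0379 in the 7 MFN2 mice, and 1.38 in library 43. These shares are a description and were not tested.

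**Figure D3:**
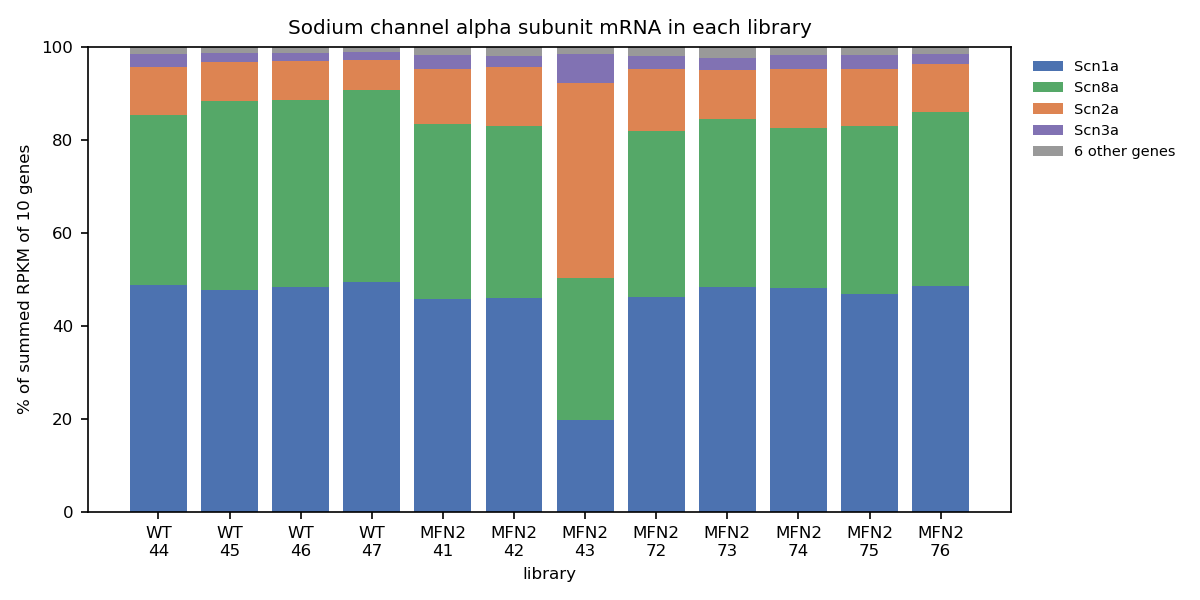
Share of each sodium channel alpha subunit gene in the summed RPKM of the 10 alpha subunit genes, in percent, 1 bar per library. Scn1a and Scn8a fill most of each bar, Scn2a takes 6.59% to 10.4% in WT and 10.2% to 13.3% in MFN2 libraries other than 43, and library 43 differs from all others with 42% Scn2a.

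Of the sodium channel beta subunits, Scn2b and Scn3b rose and Scn4b fell in libraries 72 to 76. Scn4b was at 250, 330, 341 and 332 CPM in WT libraries, with library 44 far below the other 3. It was 260, 277 and 71.3 CPM in MFN2 libraries 41 to 43 and 240, 264, 243, 245 and 273 CPM in libraries 72 to 76. All 8 MFN2 libraries were below WT libraries 45 to 47, and 3 of the libraries 72 to 76 were also below library 44. Scn4b fell by 0.30 on the log2 scale in libraries 72 to 76 (SE 0.082, FDR = 0.0198) but was not called without WT library 45, 46 or 47, with FDRs up to 0.0654. Scn2b and Scn3b rose in the same comparison, by 0.48 ± 0.14 (FDR = 0.0346) and 0.52 ± 0.16 (FDR = 0.0374), and neither was called without library 72, 74, 75, 45 or 46, nor Scn2b without 47. Scn3b stood at 81.3 CPM in library 43 against 18.2 to 25.0 CPM in the other MFN2 libraries and 10.2 to 18.5 CPM in WT libraries. The ratio of Scn4b to Scn2b, per length, was 2.39 ± 0.658 (SD, n = 4) in WT mice and 1.40 ± 0.244 (SD, n = 7) in MFN2 mice without library 43, where it was 0.262.

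**Figure D4:**
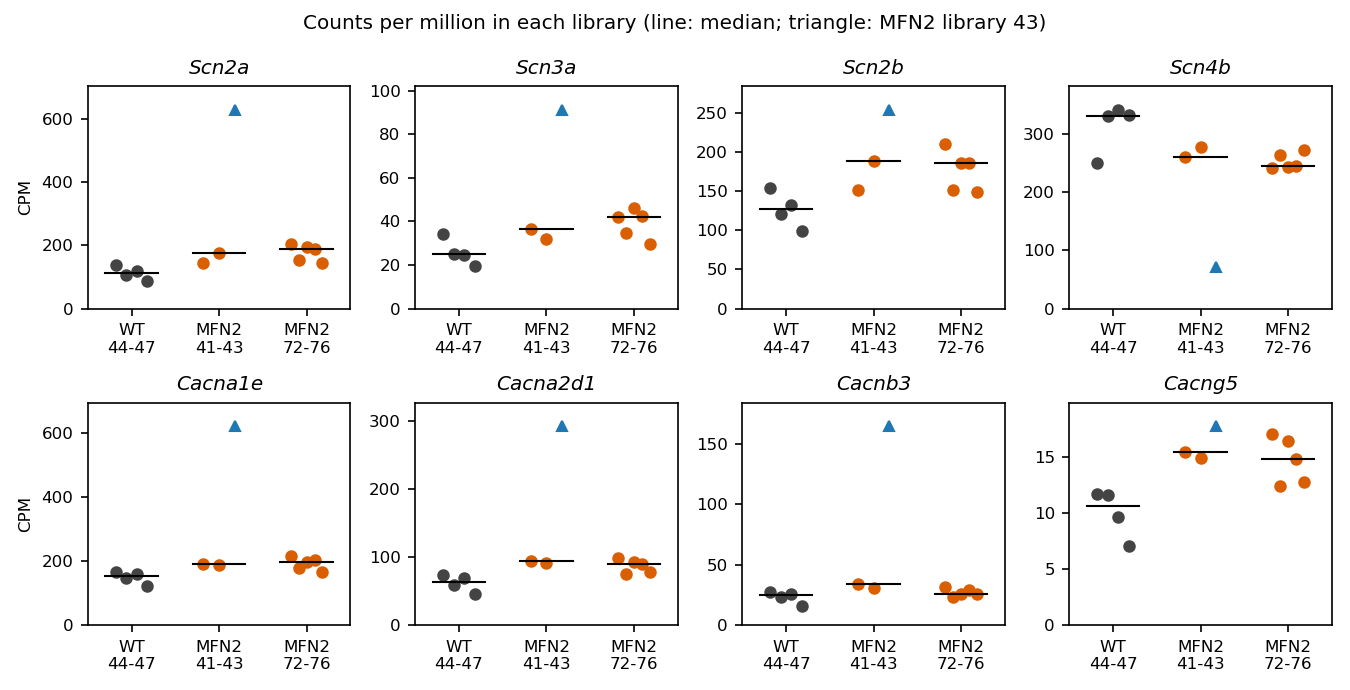
CPM of 8 channel genes in each library, with 4 WT, 3 MFN2 (41 to 43) and 5 MFN2 (72 to 76) libraries; lines are medians, the triangle is library 43, and each axis starts at 0. In libraries 72 to 76 Scn2a, Cacna2d1, Cacna1e and Cacng5 lie above all WT libraries, while library 43 sets the scale for Scn2a, Scn3a, Cacna1e, Cacna2d1 and Cacnb3.

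Of the 10 calcium channel pore genes 9 were tested, 5 of them rose in libraries 72 to 76, where 11.4% of all genes did, and 4 were not called. Cacna1b, the N-type CaV2.2 of presynaptic terminals, was at 109, 87.2, 96.2 and 85.5 CPM in WT libraries and at 128, 115, 125, 133 and 124 CPM in libraries 72 to 76, without overlap. It rose by 0.41 ± 0.073 (FDR = 0.0025) and stayed called in each leave-out. In libraries 41 to 43 it was 104, 103 and 186 CPM, the first 2 inside the WT range. Cacna1d, the L-type CaV1.3 known for persistent inward currents in motor neurons, was at 39.0, 30.3, 30.8 and 32.8 CPM in WT libraries and at 41.3, 48.6, 46.8, 49.98 and 41.5 CPM in libraries 72 to 76. It rose by 0.46 ± 0.086 (FDR = 0.0030), also in each leave-out, while libraries 41 and 42 stood at 28.7 and 32.2 CPM, inside or below the WT range, and library 43 at 64.0 CPM.

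Cacna1e, the R-type CaV2.3, was at 165, 148, 159 and 121 CPM in WT libraries, at 191, 187 and 620 CPM in MFN2 libraries 41 to 43 and at 215, 177, 198, 204 and 165 CPM in libraries 72 to 76. The lowest MFN2 library and the highest WT library, 164.7 and 164.6 CPM, all but met. The rise in libraries 72 to 76 was 0.37 ± 0.10 (FDR = 0.0227), not called without library 74, 75 or 45. Cacna1a and the T-type Cacna1h rose by 0.20 ± 0.063 (FDR = 0.0376) and 0.36 ± 0.10 (FDR = 0.0266), and both overlapped with WT. Cacna1a was not called without library 72, 74, 75, 45, 46 or 47, and Cacna1h not without 72, 74, 45, 46 or 47. Cacna1c, the L-type CaV1.2, had a change of 0.17 ± 0.081 (FDR = 0.143). In library 43 Cacna1c was at 159 CPM and Cacna1h at 70.9 CPM, against 77.1 to 97.9 CPM and 29.2 to 41.5 CPM in the other MFN2 libraries.

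Of the 4 alpha2delta subunits Cacna2d1, Cacna2d2 and Cacna2d3 rose in libraries 72 to 76, against 11.4% of all genes. The rise of Cacna2d2 was 0.27 ± 0.086 (FDR = 0.0381), and the gene was not called without library 72, 74, 75, 45, 46 or 47, with FDRs up to 0.109. Cacna2d1 was at 73.9, 58.3, 69.2 and 45.4 CPM in WT libraries, at 94.6, 91.2 and 293 CPM in MFN2 libraries 41 to 43 and at 98.1, 75.4, 93.0, 90.6 and 78.6 CPM in libraries 72 to 76. All MFN2 libraries exceeded all WT libraries. The rise was 0.50 ± 0.14 (FDR = 0.0287) and was not called without library 72, 74, 75 or 45, while over all 12 libraries the change was 0.89 ± 0.36 (FDR = 0.294) with and 0.52 ± 0.12 (FDR = 0.0775) without library 43.

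Cacna2d3 was the only channel gene called between the MFN2 runs, where 2.29% of all genes were called. It was at 75.04, 82.5 and 77.3 CPM in libraries 41 to 43 and at 104, 106, 106, 111 and 100 CPM in libraries 72 to 76, with 89.8, 79.1, 96.7 and 92.8 CPM in WT libraries 44 to 47. All WT libraries lay below libraries 72 to 76, and WT library 45 lay below library 42. Libraries 72 to 76 exceeded libraries 41 to 43 by 0.42 ± 0.065 (log2, FDR = 0.0253), and the change from WT was 0.24 ± 0.060 (FDR = 0.0142) in the former and -0.18 ± 0.094 (FDR = 0.635) in the latter. Without library 43 the difference between the runs was 0.42 ± 0.066 (FDR = 0.0032) and the change of libraries 41 and 42 from WT -0.17 ± 0.094 (FDR = 0.902). The difference between the runs was not called without library 41, 72, 73, 74, 75 or 76, with FDRs up to 0.0899. The runs did not overlap in 7 channel genes, with 4 higher (Cacna2d3, Scn1a, Scn8a and Cacng2) and 3 lower (Cacng7 and Cacng8 among them) in libraries 72 to 76, against 18.2% of all genes, 9.62% higher and 8.59% lower. Without library 43 they were 12, 9 higher and 3 lower, against 34.3% of all genes, 17.9% higher and 16.4% lower. The log2 fold change was above 0 for 14 of the 34 with library 43, against 49.5% of all genes, and for 21 without it, against 50.4%. Its median was -0.12 with and 0.052 without library 43. Without library 43, 8 channel genes were called between the runs, against 14.6% of all genes, 7.29% higher. Cacna1b, Cacna1d, Cacnb2, Scn1a, Cacna2d3 and Cacng2 were then higher in libraries 72 to 76, and Cacng8 was lower. Among them Cacna1d differed most, by 0.58 ± 0.093 (FDR = 0.0034). The run and any other difference between these mice cannot be told apart.

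Of the 4 calcium channel beta subunits, 2 rose in libraries 72 to 76, against the same 11.4% of all genes. Cacnb4 rose by 0.15 ± 0.045 (FDR = 0.0330) and Cacnb2 by 0.21 ± 0.051 (FDR = 0.0124) in libraries 72 to 76, Cacnb2 in each leave-out and Cacnb4 not without 72, 73, 74, 45, 46 or 47. Cacnb2 was at 45.1, 41.6, 44.97 and 44.5 CPM in WT libraries and at 50.3, 48.4, 53.9, 50.7 and 50.3 CPM in libraries 72 to 76, without overlap, but at 38.5 and 45.1 CPM in libraries 41 and 42. Cacnb1 and Cacnb3 were not called. Library 43 held 124 CPM of Cacnb1 and 164 CPM of Cacnb3, where the other MFN2 libraries ranged from 39.9 to 51.9 and from 23.3 to 33.7 CPM.

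Of the 8 gamma subunits 6 were tested, and Cacng4 and Cacng5 rose in libraries 72 to 76, where 11.4% of all genes rose. Both are AMPA receptor partners. Cacng5 was at 11.7, 11.6, 9.61 and 7.10 CPM in WT libraries, at 15.5, 14.9 and 17.7 CPM in MFN2 libraries 41 to 43 and at 17.1, 12.4, 16.5, 14.8 and 12.8 CPM in libraries 72 to 76. It was higher in each MFN2 library than in each WT library, and library 43 stood close to the others. Its change was 0.56 ± 0.15 (FDR = 0.0210) in libraries 72 to 76 and 0.70 ± 0.18 (FDR = 0.635) in libraries 41 to 43, with 0.61 ± 0.18 without library 43. Cacng4 was at 43.7, 46.5, 47.2 and 33.7 CPM in WT libraries and between 49.2 and 66.6 CPM, with a median of 52.1 CPM, in MFN2 libraries, and rose by 0.32 ± 0.091 (FDR = 0.0270) in libraries 72 to 76. Cacng5 was not called without library 74 or 46, and Cacng4 not without 72, 73 or 74.

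Cacng2, Cacng7 and Cacng8 were not called. Cacng2 was at 113 to 122 CPM in WT libraries, at 91.1, 107 and 69.2 CPM in MFN2 libraries 41 to 43 and at 121 to 129 CPM in libraries 72 to 76. Its change was -0.38 ± 0.14 (FDR = 0.635) in libraries 41 to 43, or -0.23 ± 0.086 (FDR = 0.863) without library 43, and 0.096 ± 0.045 (FDR = 0.143) in libraries 72 to 76. Cacng8 was at 10.6 to 13.1 CPM in WT libraries and at 8.58 to 10.3 CPM in libraries 72 to 76, without overlap (-0.26 ± 0.091, FDR = 0.0587), and at 51.9 CPM in library 43. Cacng3, of cortical and other forebrain neurons, was at 75.3 CPM in library 43 against 11.6 to 13.5 CPM in the other MFN2 libraries and 8.66 to 12.4 CPM in WT libraries.

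Library 43 was the highest of the 12 libraries in 21 of the 34 tested channel genes and the lowest in 5. Cacng3, Cacnb3, Cacng8, Cacna2d1, Scn3b, Cacna1e and Scn2a lay furthest above the other MFN2 libraries relative to the range of their group, and Scn4b, Scn1a and Cacna2d2 below it. The forebrain genes named above moved with these values. Lamp5 was the most abundant of them in WT mice, while Camk2a reached 1920 CPM and Slc17a7 1032 CPM in library 43. Of the list, 3 genes, Tbr1 among them, were under 1 CPM in every WT library. The part of RNA from forebrain tissue in the channel values of library 43 was not tested. Among WT libraries, library 44 was the highest in 22 of the 34 channel genes and library 47 the lowest in 18, and library 44 also had the lowest sums of the 10 neuron markers (8399 CPM against 10670 to 11740 CPM) and of the 7 motor neuron markers (1792 CPM against 2531 to 3050 CPM).

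**Figure D5:**
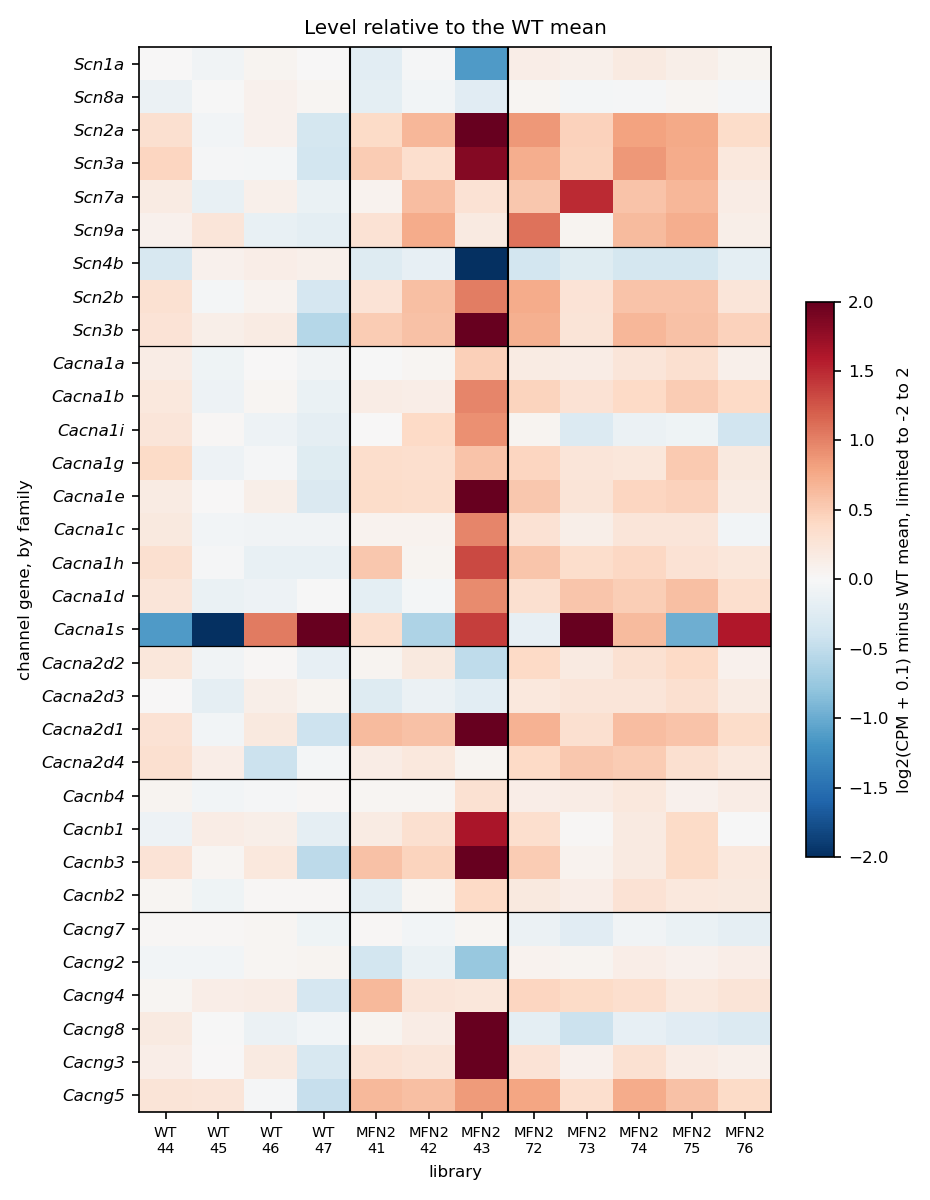
Level of 32 of the 34 tested channel genes in each library, as log2(CPM + 0.1) minus the mean of the 4 WT libraries, with colours limited to -2 to 2; columns are libraries and rows are genes by family. Library 43 holds the strongest colours, libraries 72 to 76 are mostly pale red with Scn4b in blue, and WT library 47 is mostly pale blue.

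Marker lists of other cells also differed between the groups compared. In libraries 72 to 76 against WT, 11.4% of all genes were called higher and 12.2% lower by edgeR. The unadjusted p was under 0.05 for 37.5% of all genes, and the counts below stand beside these shares. All 5 microglia markers and 4 of 6 astrocyte markers fell. The microglia list summed to 124 to 151 CPM in libraries 72 to 76 and 155 to 201 CPM in WT libraries. The astrocyte list, led by Slc1a2, summed to 4963 to 6380 CPM and 6774 to 7751 CPM. Of the vascular smooth muscle markers 2 of 4 tested fell. The 10 neuron markers, led by Nefm, gave 2 that rose, Nefm and Syt1, while 2 others were lower at an unadjusted p under 0.05. The 7 motor neuron markers, led by Nefh, gave 0 in either direction by edgeR at the FDR threshold, with 1 at an unadjusted p under 0.05. Of the 6 oligodendrocyte markers 0 were called, with 2 at an unadjusted p under 0.05, and of the 6 oligodendrocyte precursor markers, led by Sox10, 2 rose (Gpr17 and Vcan) and 1 fell (Olig2). No marker of the microglia, astrocyte, neuron, motor neuron, oligodendrocyte or precursor list was under 1 CPM in every WT library. Of the remaining lists, Nrgn of the forebrain list rose, and Pvalb of the skeletal muscle list, which is also an interneuron marker, and Cldn5 of the endothelial list fell. Myh6 of the heart list was called higher, but it was under 1 CPM in every WT library and passed the filter only through MFN2 libraries, so its value of 1.24 to 9.43 CPM in libraries 72 to 76 is given as a description. No caudal Hox, sensory neuron, Schwann cell or photoreceptor marker was called there, with 1 Hox marker at an unadjusted p under 0.05. The part of cell makeup in the channel changes was not tested.

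Genes that work with these channels were followed as a list of 50 symbols, of which 47 were counted and 43 tested. They include auxiliary and anchoring proteins, calmodulins, other cation channels and presynaptic proteins that hold calcium channels near vesicles. In libraries 72 to 76, 14 of the 43 rose and 2 fell, where 11.4% and 12.2% of all genes did, and the median log2 fold change was 0.12. In the other 3 comparisons 0 were called by edgeR, with 7 at an unadjusted p under 0.05 over all 12 libraries, 9 in libraries 41 to 43 against WT and 8 between the MFN2 runs, where 15%, 7.2% and 24.5% of all genes were. Without library 43 these were 15, 7 and 12, against 21.1%, 5.67% and 30.9% of all genes, and 6 were called between the runs, against 14.6%. Stac3, an adaptor of the muscle calcium channel, is among the 14, but it was under 1 CPM in every WT library and passed the filter only through MFN2 libraries, so its 0.966 to 1.70 CPM in libraries 72 to 76 is given as a description. Ryr3, a calcium release channel, had the next change in size, at 0.60 ± 0.094 (FDR = 0.0015). The presynaptic genes Stx1a (0.57 ± 0.14), Syt1 (0.48 ± 0.14), Erc2 (0.44 ± 0.061) and Rims2 (0.26 ± 0.053) rose, with FDRs from 6.6e-04 to 0.0340. So did Fam155a (0.30 ± 0.045), a partner of the sodium leak channel, Nfasc (0.29 ± 0.053), which gathers sodium channels at nodes and initial segments, and Fgf14 (0.28 ± 0.076), which binds the tail of their alpha subunits. Cabp1, a calcium sensor of calcium channels, fell by 0.28 (FDR = 0.0156).

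Nfasc was at 848, 888, 827 and 927 CPM in WT libraries 44 to 47 and at 1061, 1126, 1025, 996 and 1107 CPM in libraries 72 to 76, without overlap, but at 879, 788 and 523 CPM in libraries 41 to 43. Erc2 was at 61.5, 61.4, 65.1 and 57.03 CPM in WT libraries, at 88.7, 80.0, 83.5, 87.8 and 75.4 CPM in libraries 72 to 76 and at 65.1, 73.6 and 263 CPM in libraries 41 to 43. Both thus separated libraries 72 to 76 from WT, and library 43 stood apart from the other MFN2 libraries, low in Nfasc and high in Erc2. Ank3 and Sptbn4, the ankyrin-G and beta-IV spectrin that anchor sodium channels at nodes and initial segments, had log2 fold changes of 0.13 ± 0.047 (FDR = 0.0667) and -0.058 ± 0.062 (FDR = 0.530) in libraries 72 to 76 and were not called. These 2 were named after their values were seen.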

How the data were processed

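RNA of the lumbar spinal cord was sequenced by the authors in paired-end mode and aligned with STAR to GRCm38. They deposited raw whole-number counts for each Ensembl gene and mouse. How reads were counted, and on which strand, is not given in the sources used here. P-values measure the spread between mice. Genes were named by GENCODE M21 (49289 of 49548 matched), which also gave exons and sequences.

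After TMM scaling, the 15942 genes above 1 CPM in at least 3 of 12 libraries entered the legacy, robust quasi-likelihood test of edgeR 4.0.16 (R 4.3.3), with Benjamini-Hochberg adjustment over all genes tested (FDR of 0.05), separately for 4 comparisons: all libraries, either MFN2 run against WT, and the MFN2 runs. RPKM used the union of exons. The study's supplement heads its library method 3′-mRNA sequencing but names a total RNA kit. How evenly reads covered the transcripts was not tested, so orders of genes by RPKM are uncertain to that extent. The smallest misfit between libraries of a genotype was a chi-square of 5.00 per degree of freedom, so none was counted as a duplicate. Depth limits genes near 1 CPM. Alternatives were RLE, upper-quartile and plain library-size scaling, other filters, DESeq2 1.42.0, limma 3.58.1, the number run as covariate, and leaving out single libraries. The scripts were tested on simulated data.

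Named channel genes are the 2 highest per family in WT RPKM, those called (at most 6 per direction), those without overlap between genotypes, and those in which library 43 lies beyond Dixon's limit. Others were named for low counts, shared sequence, calls in single leave-outs or as neighbours in the order of levels. Partner genes were named where called, 10 at most by size, with Ank3 and Sptbn4 as exceptions. The channel genes, marker lists and alternatives were chosen with earlier results of these data known. Some genes are counted in the totals but not reported here.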

Additional observations from a re-analysis of the deposited data

Results flagged for a closer look

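For 32 of the tested channel genes, libraries were compared within each genotype to find any that stands apart, by the gap between the highest or lowest library and its nearest neighbour as a share of the range of the group. Of 64 groups, 21 passed Dixon's 95% critical value, where chance gives about 1 in 20, or 3.2. Library 43 accounted for 15 of them, as the highest MFN2 library in 12 and the lowest in 3.

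Library 43 was highest in Cacng3, with a gap of 0.970 of the range, Cacnb3 (0.926), Cacng8 (0.902), Cacna2d1 (0.896), Scn3b (0.892), Cacna1e (0.890), Scn2a (0.876), Cacnb1 (0.857), Cacna1c (0.746), Scn3a (0.728), Cacna1h (0.705) and Cacna1b (0.632). It was lowest in Scn4b (0.822), Scn1a (0.604) and Cacna2d2 (0.542). Among the other MFN2 libraries, library 73 was far above the rest in Scn7a (0.692) and Cacna1s (0.590) and library 41 in Cacng4 (0.540). Among WT libraries, library 44 was far above in Cacna1c (0.909) and far below in Scn4b (0.878), and library 45 was far below in Cacnb2 (0.833, or 41.6 CPM against 44.5 to 45.1 CPM).

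Cacna2d3 differed between the runs of MFN2 libraries. Its change from WT was 0.42 higher on the log2 scale in libraries 72 to 76 than in libraries 41 to 43, by the edgeR test between these MFN2 libraries (FDR = 0.0253), and all 5 libraries of the later run exceeded all 3 of the earlier one.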

How the results depend on the processing

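Over all 12 libraries, 0 channel genes were called under each edgeR and limma setting and each leave-out. DESeq2 called 2, with Cacng5 among the 2 at 0.61 (adjusted p = 0.0155), against 1.26% of genes with an adjusted p. In libraries 41 to 43 against WT the count was 0 under each setting and leave-out. Over all genes tested, DESeq2 called 200 where edgeR called 0 with all 12 libraries, and 757 where edgeR called 19 without library 43. Between the MFN2 runs DESeq2 called 1775 where edgeR called 365, and 2765 where edgeR called 2325 without library 43. DESeq2 without library 43, chosen after seeing the data, called 11 channel genes over the other 11 libraries (5.38% of genes with an adjusted p, Cacng5 at 0.57, adjusted p = 0.0055), 0 in libraries 41 and 42 against WT (0.109%) and 9 between the runs (17.4%). In libraries 72 to 76 against WT the count was 19 with RLE scaling, 17 without a filter and 23 by DESeq2, against 23.5%, 11% and 26.6% of all genes tested, and it ranged from 7 to 23 when 1 library was left out, against 14.8% to 28.3%. Between the MFN2 runs DESeq2 called 5 instead of 1, against 11.3% of genes with an adjusted p. The leave-outs by edgeR gave 0 to 8, against 0.163% to 14.6% of all genes. Of 625 log2 fold changes of 25 channel genes under the alternatives to the fit over all 12 libraries, 19 had the opposite sign. None of these genes was called by edgeR in that fit, while Cacna2d2 and Cacna2d3 were called in libraries 72 to 76 against WT. Without library 43 these were Cacng2 (0.0026), Cacng8 (-0.15) and Scn1a (0.054), by DESeq2 Cacng8 (-0.13), by DESeq2 without library 43 Cacng2 (0.0076), Cacng8 (-0.14) and Scn1a (0.059), and by library size only Scn1a (0.0042). With the number run as a covariate they were Cacna2d2 (-0.066), Cacna2d3 (-0.19) and Cacng7 (0.0013). With library 43 left out of that fit, a setting chosen after seeing the data, these were 0.11, -0.19 and -0.018. From libraries 41 to 43 alone they were Cacna2d2 (-0.051), Cacna2d3 (-0.18) and Cacng7 (0.017), which were 0.13, -0.17 and -0.0061 without library 43, and from libraries 72 to 76 alone Cacng2 (0.096), Cacng8 (-0.26), Scn1a (0.12) and Scn8a (0.0030). Leaving out 1 library at a time gave -0.11 to 0.0026 for Cacng2, -0.15 to 0.52 for Cacng8 and -0.087 to 0.054 for Scn1a. The cause was not tested. No paired analysis was possible because the genotypes share no library number. Channel genes near 1 CPM rest on few counts, and a missed threshold does not show equal levels.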
